A study of Homo sapiens with 17 samples.

Results

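Among the 5 RNA-seq libraries of UTX knockout neurons, 3 held COL1A1 at 1000 CPM or more (counts per M counts of the library, M for mega) and 2 held it lower. These high-collagen libraries are set beside the low-collagen ones. The libraries were chosen by that COL1A1 level. KO1 replicate 2, KO2 replicate 1 and KO2 replicate 2 form the high-collagen set, and KO1 replicate 1 and KO1 replicate 3 form the low-collagen set. They are 5 of the 8 RNA libraries and of the 17 samples of the series. Just inside the threshold stood KO2 replicate 1 with 8859 CPM of COL1A1 and just outside it stood KO1 replicate 1 with 294.6. Because the choice used the RNA values of these libraries, all differences between the sets are given as descriptions, with no test.

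All cultures came from H9, an established human embryonic stem cell line, and were carried through embryoid bodies, rosettes and neurospheres to neurons collected at day 40. The wild-type (WT) group has 3 RNA libraries, and the knockout lines KO1 and KO2, both labelled UTX-/-, have 3 and 2. The labels give neither the edited position nor whether a line is a single clone. UTX, encoded by KDM6A, is a demethylase that removes the repressive mark H3K27me3 (trimethylation of lysine 27 of histone H3). Its mRNA stood at 40.7 and 34.1 CPM in the low-collagen libraries, 30.02, 25.9 and 33.9 in the high-collagen ones and 35.2 to 36.1 in WT, which does not check the genotype while the edit is unknown. The series describes the RNA samples as biological replicates without saying that each came from a separate differentiation, so p-values below measure only the spread between these libraries.

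Fibrillar collagens are the rope-like proteins of connective tissue and are secreted by mesenchymal cells, which arise in the head from neural crest and mesoderm and in the trunk from mesoderm. Their precursor chains are hydroxylated and folded in the endoplasmic reticulum, trimmed outside the cell and cross-linked by lysyl oxidases. Regional identity along the body axis is read from transcription factors: EMX2 and LHX2 in the forebrain, and HOX genes, in order of their paralog number, from the hindbrain backwards.

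Totals were 17.4 to 31.5 M estimated counts per library, and 19440 genes passed the filter on low counts. The 20 matrix genes took 8.64%, 3.67% and 5.24% of all counts in KO1 replicate 2, KO2 replicate 1 and KO2 replicate 2, against 0.282% in each low-collagen library and 0.0923% to 0.369% in WT. The 10 most abundant genes of a library took 10.8%, 6.4% and 8% in the high-collagen libraries and 4.82% to 5.39% elsewhere. The TMM factor, which corrects for such a shift in composition, was 0.827 in KO1 replicate 2 and 0.942 to 1.08 in the others. Mitochondrially encoded genes took 3.52% to 4.82%. Levels of genes, KDM6A included, are CPM after TMM scaling, and the COL1A1 threshold alone was applied to unscaled library totals. Values of a gene are listed for the low-collagen KO1 replicates 1 and 3 and then for the high-collagen KO1 replicate 2, KO2 replicate 1 and KO2 replicate 2, in that order. In bulk RNA, fewer cells of a type and less RNA per cell cannot be told apart.

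Across the 19440 genes, 1062 were at least 4-fold higher in mean CPM in the high-collagen set with no overlap between the sets, which is 5.46% of genes, and 361 were at least 4-fold lower, which is 1.86%. These shares come from the contrast that chose the libraries and nothing is read from them. The median log2 ratio over all genes was -0.03. Of the 1062 genes, 954 also stood above every WT library in all 3 high-collagen libraries, and of the 361 lower genes, 262 stood below every WT library. The same 4-fold excess over the low-collagen mean was met in every one of the 3 libraries by 616 of the 1062 genes, and the lower call by 117 of the 361. The 3 libraries contributed unequally. The highest value of the 1062 genes fell in KO1 replicate 2 for 774, in KO2 replicate 1 for 195 and in KO2 replicate 2 for 93. The median excess over the low-collagen mean was 10.1-fold in KO1 replicate 2, 5.66-fold in KO2 replicate 1 and 6.53-fold in KO2 replicate 2. Over all 19440 genes, the Spearman correlation of log2 CPM was 0.978 between KO1 replicate 2 and KO2 replicate 2, 0.961 between the replicates of KO2, 0.944 between KO1 replicate 2 and KO2 replicate 1, and 0.982 between the low-collagen libraries. The high-collagen libraries correlated with the low-collagen ones at 0.888 to 0.944. KO1 replicate 2 and KO2 replicate 2, of different lines, were the closest high-collagen pair, and KO2 replicate 1 was about as close to KO1 replicate 2 as to the low-collagen KO1 replicate 1 (0.939). These correlations are across genes and carry no test.

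Of the 20 fibrillar matrix genes, 19 were at least 4-fold higher, with a median log2 ratio of 4.80. COL1A2, the partner chain of COL1A1 in type I collagen, stood at 59.2 and 202 CPM in the low-collagen libraries and at 17500, 5690 and 10200 CPM in the high-collagen ones. COL3A1, the chain of type III collagen, stood at 205 and 258 against 14700, 6880 and 9280 CPM. FN1, which encodes fibronectin, stood at 467 and 560 against 10500, 4630 and 5990 CPM. For all 3 genes the sets were far apart, with KO1 replicate 2 highest and KO2 replicate 1 lowest of the high-collagen libraries. COL6A1, a chain of microfibrillar type VI collagen, was the gene of the list that missed 4-fold, at 299 and 267 against 906, 625 and 657 CPM. Its partner COL6A3 reached 716, 682 and 616 CPM from 27.7 and 22.9, nearly level among the 3. The proteoglycan gene OGN was uneven among the 3, at 1.06 and 12.6 against 1580, 164 and 650 CPM. MGP, which encodes an inhibitor of calcification, ran the other way, with 130 CPM in KO1 replicate 2 and 309 and 257 CPM in the KO2 libraries, against 4.95 and 6 CPM. FMOD, another small proteoglycan, was counted at 0 and 0.0294 CPM in the low-collagen libraries and at 21.3, 2.28 and 5.05 CPM.

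The enzymes that make collagen were higher with it. Of 20 genes for collagen processing, 15 were at least 4-fold higher and none lower, with a median log2 ratio of 2.64. LOX, a lysyl oxidase that cross-links collagen, stood at 13.8 and 10.99 against 1190, 181 and 689 CPM. SERPINH1, the chaperone of procollagen in the endoplasmic reticulum, stood at 162 and 92.0 against 1360, 567 and 725 CPM. P4HA3, a prolyl hydroxylase subunit, stood at 0.303 and 0.647 against 126, 7.15 and 41.0 CPM. CREB3L1, a transcription factor that drives collagen genes in bone, was at 3.43 and 3.32 against 274, 50.8 and 144 CPM. All 15 of these genes were lower in KO2 replicate 1 than in KO2 replicate 2. The others, PLOD2, PLOD3, FKBP10, CRTAP and COLGALT1, had log2 ratios of 0.58 to 2.

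**Figure D1:**
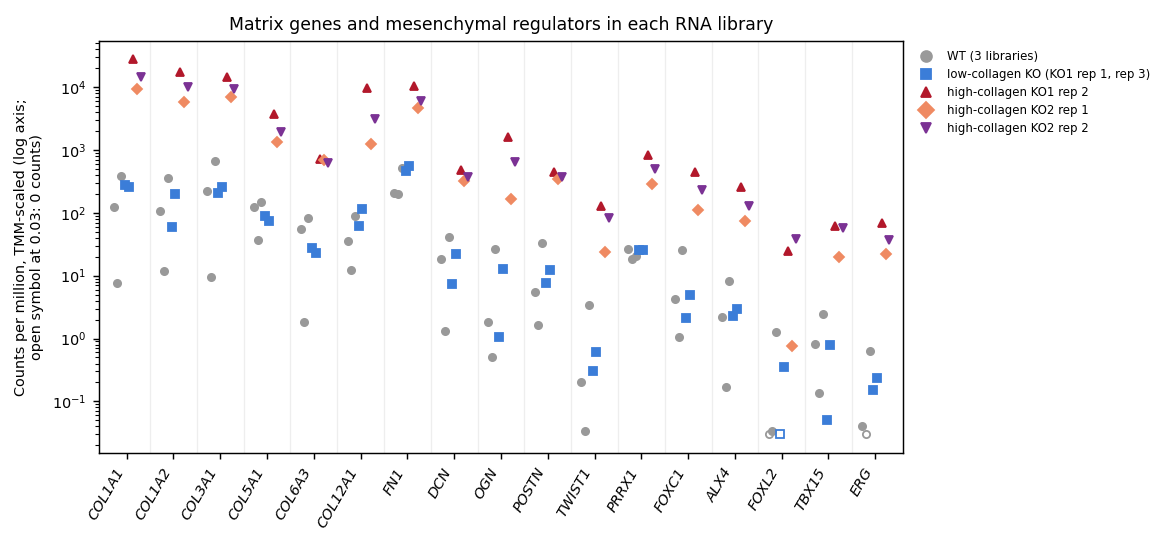
CPM on a log axis of matrix genes (left) and of mesenchymal transcription factors (right) in each of the 8 RNA libraries; each symbol is 1 library and open symbols are libraries with 0 counts. The 3 high-collagen libraries lie above the low-collagen KO libraries at every gene shown, and KO2 replicate 1 (diamonds) reaches 0.760 CPM at FOXL2.

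Transcription factors of mesenchyme were higher as well, and several stood below 1 CPM in the low-collagen libraries. Of 24 such regulators, 23 passed the filter, 16 were at least 4-fold higher and 1, FOXF1, was lower at 1.56 and 1.06 against 0, 0.223 and 0.0495 CPM. TWIST1, a factor of head mesenchyme and of epithelial-mesenchymal transition, stood at 0.303 and 0.617 against 126, 23.6 and 83.0 CPM, a log2 ratio of 7.40. PRRX1, a homeobox factor of limb and craniofacial mesenchyme, stood at 26.0 and 25.4 against 818, 290 and 491 CPM. Unlike TWIST1 it had a clear level in every library, WT included (18.6 to 26.7 CPM). FOXC1, a forkhead factor of the meninges, the eye and the vessels, stood at 2.12 and 4.88 against 445, 112 and 231 CPM. ZEB1 and ZEB2, which are also expressed in neural progenitors, barely differed, with log2 ratios of 0.48 and 0.12, and LEF1 was on the other side at 90.9 and 106 against 16.5, 15.6 and 71.6 CPM. SNAI2 stood at 11.1 and 5.38 against 140, 83.1 and 82.9 CPM.

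FOXC1 and OGN are shown here as 1 transcription factor and 1 matrix gene of the set, with unlike CG content. The capitals mark every CG, the dinucleotide in which CpG islands are rich, in the 250 bases before the annotated start site in RefSeq on GRCh38.p14. FOXC1 is printed from chr6:1609665-1609914 (plus strand) and OGN from chr9:92404579-92404828 (minus strand, 1 of its 2 start sites in the table), each 5′ to 3′ on its own strand.
FOXC1: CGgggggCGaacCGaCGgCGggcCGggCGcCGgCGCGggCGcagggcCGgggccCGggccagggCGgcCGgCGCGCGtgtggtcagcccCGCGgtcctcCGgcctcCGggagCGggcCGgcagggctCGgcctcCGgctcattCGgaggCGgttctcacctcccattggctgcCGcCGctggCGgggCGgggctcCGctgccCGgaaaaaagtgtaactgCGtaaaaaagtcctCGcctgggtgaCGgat
OGN: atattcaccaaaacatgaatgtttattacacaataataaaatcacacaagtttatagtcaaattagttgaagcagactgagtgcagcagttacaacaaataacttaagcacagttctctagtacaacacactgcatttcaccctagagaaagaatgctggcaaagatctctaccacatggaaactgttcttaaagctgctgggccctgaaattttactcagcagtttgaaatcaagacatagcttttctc
The FOXC1 stretch holds 37 CG and the OGN stretch holds 0. Of 35116 promoter windows of this length in the table, 93.9% hold at least 1 CG and the median is 11.

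Genes named for head mesenchyme differed in level among the 3 high-collagen libraries, and their sum did so much as the matrix sum did. Of 20 such genes, 11 were at least 4-fold higher, and 1, DLX1, was lower. Their summed level was 106.8 and 105.0 against 2241, 872.3 and 1234 CPM. ALX1, which patterns the frontonasal region, stood at 1.97 and 2.79 against 150, 10.1 and 74.2 CPM. Its relative ALX4 stood at 2.32 and 2.91 against 253, 72.8 and 129 CPM. SIX2, a relative of sine oculis with roles in head mesenchyme and in kidney progenitors, stood at 0.808 and 4.29 against 393, 37.04 and 134 CPM. Outside this list, FOXL2, a forkhead factor of the eyelid and ovary, and its neighbour FOXL2NB were high in KO1 replicate 2 and KO2 replicate 2 only. FOXL2 stood at 0 and 0.353 against 24.4, 0.760 and 38.5 CPM, and FOXL2NB at 0.101 and 0.0588 against 44.0, 0.670 and 61.8 CPM. If both are counted without regard to strand, their reads cannot be told apart.

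Relative to KO1 replicate 2, the levels in KO2 replicate 1 were uneven among both these factors and the matrix genes. Its summed matrix genes were 36.5% of those in KO1 replicate 2, and in KO2 replicate 2 they were 53.3%. The mesenchymal regulators summed to 52.4% and 69.6%, and the head mesenchyme genes to 38.9% and 55.1%. These lists share TWIST1, PRRX1, MSX1 and MSX2, and the regulator sum includes ZEB1 and ZEB2, which barely differed between the sets. Among members at least 4-fold higher, medians in KO2 replicate 1 were 43.9% (matrix), 33.9% (mesenchymal regulators) and 28.7% (head mesenchyme). In KO2 replicate 2 they were 57%, 71.4% and 56.8%. Single genes ran lower on both sides. Of the matrix genes, COL14A1, OGN and FMOD were at 6.32%, 10.4% and 10.7% of KO1 replicate 2 in KO2 replicate 1. Of the factors, ALX1 and SIX2 were at 6.7% and 9.42% of KO1 replicate 2 in KO2 replicate 1, and at 49.4% and 34% in KO2 replicate 2. OSR2 was at 5.58% and 294%, from 5.601 CPM in KO1 replicate 2. MSX1 and MSX2, homeobox targets of BMP signalling, went the opposite way in KO2 replicate 1, at 150 and 123 CPM against 29.9 and 84.7 CPM in KO1 replicate 2 and 28.6 and 68.3 CPM in KO2 replicate 2. Each library is a single culture, so these differences among the 3 have no replicate check.

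**Figure D2:**
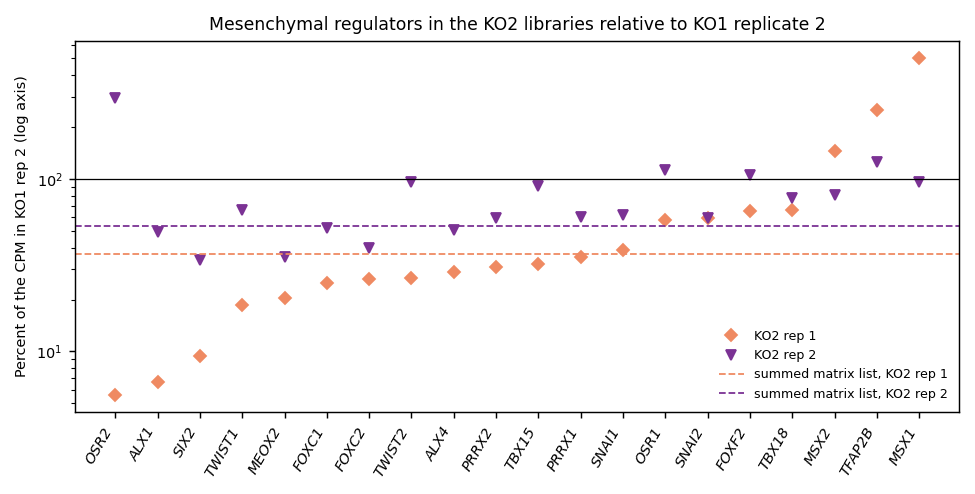
CPM of mesenchymal and head mesenchyme regulators that were at least 4-fold higher, in KO2 replicate 1 (diamonds) and KO2 replicate 2 (triangles), as a percentage of the CPM in KO1 replicate 2 (log axis, black line at 100); dashed lines give the same for the summed matrix genes. KO2 replicate 1 runs from 5.58% (OSR2) to 504% (MSX1) around its matrix level of 36.5%.

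Markers of the tissues that mesenchyme forms were present in part. The contractile genes of smooth muscle summed to 1808 and 516.8 against 3782, 3778 and 2973 CPM, so KO1 replicate 1 stood much closer to the high-collagen libraries here than KO1 replicate 3 did, and WT held 173.2 to 325.2 CPM. Of 16 members, 7 were at least 4-fold higher. ACTA2, the smooth muscle actin also made by myofibroblasts, stood at 150 and 25.9 against 373, 361 and 357 CPM. TAGLN, which encodes an actin-bundling protein, stood at 312 and 51.1 against 510, 813 and 476 CPM and missed 4-fold. ACTG2, the enteric smooth muscle actin, stood at 14.9 and 7.17 against 168, 144 and 127 CPM. Of the defining late markers, MYH11 (smooth muscle myosin) stayed at or below 1.18 CPM, MYOCD (the coactivator myocardin) at or below 3.89 CPM and DES was at 0 in all 5 KO libraries.

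The ACTG2 promoter is shown because motif matches can be read in it. Capitals mark matches to the CArG box, the site of serum response factor, searched on the 250 bases before the start site at chr2:73892758-73893007 (plus strand, RefSeq, GRCh38.p14). The motif reads the same on both strands.
ACTG2: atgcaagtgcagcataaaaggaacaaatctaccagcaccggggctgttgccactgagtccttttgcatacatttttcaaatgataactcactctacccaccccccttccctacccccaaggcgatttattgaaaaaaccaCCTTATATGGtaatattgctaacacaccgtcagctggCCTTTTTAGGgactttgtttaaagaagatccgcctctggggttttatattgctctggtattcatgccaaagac
The 2 matches begin 110 and 73 bases before the start site. Such a match occurs in 407 of the 35116 windows, or 1.16%, and in 3 of the 11 smooth muscle genes with a window (ACTG2, SMTN and TGFB1I1). A match describes these letters only.

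Of 20 cartilage genes, 8 were at least 4-fold higher, and the list summed to 895.1 and 827.8 against 5401, 1918 and 2102 CPM. COL2A1, the collagen of cartilage, stood at 126 and 96.8 against 2250, 451 and 500 CPM. COL11A1, a minor chain of cartilage fibrils, stood at 329 and 217 against 2350, 1070 and 1190 CPM. ACAN, the aggrecan core protein, stood at 0.101 and 0.176 against 11.9, 9.12 and 8.71 CPM. The factors SOX9, SOX5 and SOX6 that start the chondrocyte programme were not higher, with SOX9 at 153 and 259 against 187, 95.1 and 136 CPM, and these genes are also expressed in neural progenitors. Of the tendon genes, TNMD (tenomodulin) stood at 0.505 and 1.62 against 53.2, 24.7 and 32.3 CPM and ASPN (asporin) at 1.01 and 9.20 against 934, 220 and 411 CPM, while the tendon factor SCX reached at most 4.48 CPM. Of 15 bone genes 4 were at least 4-fold higher. RUNX2, the factor that starts bone formation, stood at 5.70 and 1.21 against 35.2, 23.2 and 17.8 CPM. Of the later markers, SP7, IBSP and DMP1 were near 0 in the KO libraries, at up to 0.149, 0.198 and 0.147 CPM. ALPL, an alkaline phosphatase of bone and other tissues, stood at 76 and 33.6 against 86.1, 10.3 and 64.7 CPM, so the sets overlapped.

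Pericyte markers were mixed, with 4 of 12 at least 4-fold higher. PDGFRB, the receptor by which mural cells are recruited, stood at 39.1 and 16.4 against 280, 213 and 193 CPM, and RGS5 at 67.6 and 25.4 against 515, 403 and 160 CPM. KCNJ8 and ABCC9, channel genes typical of brain pericytes, stayed at or below 7.19 CPM. Of 16 meningeal genes, 8 were at least 4-fold higher. CXCL12, a chemokine of the meninges, stood at 3.74 and 11.1 against 197, 78.4 and 113 CPM, and CRABP2, a retinoic acid carrier, at 44.2 and 29.4 against 262, 85.8 and 218 CPM, while ALDH1A2, which makes retinoic acid, stayed at 1.01 to 3.37 CPM.

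Targets of TGFβ and of the coactivator YAP were higher for 10 of 20 genes, with a median log2 ratio of 2.06. CCN2, a secreted target of both, stood at 192 and 22.9 against 727, 965 and 571 CPM, with KO2 replicate 1 highest. TGFBI stood at 17.6 and 11.8 against 859, 396 and 607 CPM, and INHBA, the activin subunit, at 4.39 and 2.56 against 137, 39.8 and 60.6 CPM. As with the contractile genes, KO1 replicate 1 exceeded KO1 replicate 3 several times at CCN1 (79.6 and 11.9 CPM) and ANKRD1 (12.2 and 0.441 CPM).

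**Figure D3:**
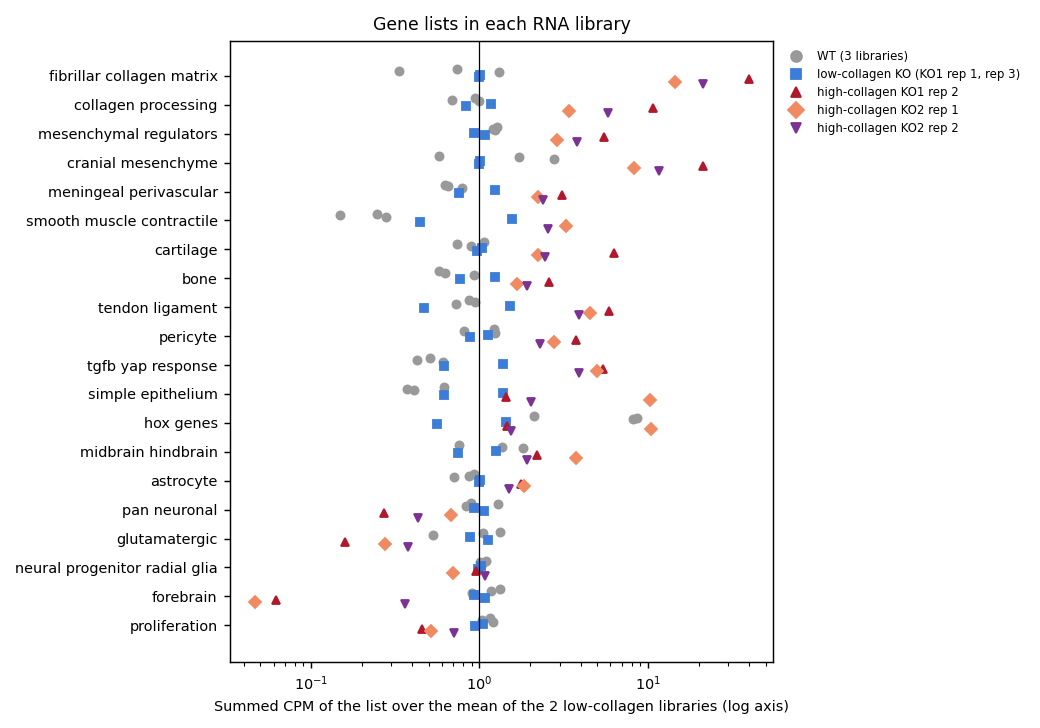
Summed CPM of each gene list in each RNA library over the mean of the 2 low-collagen libraries (log axis), 1 symbol per library. Matrix and head mesenchyme lists lie to the right, forebrain genes to the left, and KO2 replicate 1 departs from the other high-collagen libraries at HOX genes and simple epithelium.

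Markers of other lineages were mixed. Of 13 intermediate mesoderm and kidney genes 5 were at least 4-fold higher, as were 4 of 14 lateral plate and limb genes, 4 of 16 blood genes and 3 of 16 endothelial genes. SOX17, HBB, HBA1, ADIPOQ, MYF5 and C1QA were at 0 in all 8 libraries. None of the 10 adipocyte and none of the 15 endoderm genes was at least 4-fold higher. ERG, an ETS factor of endothelium and of cartilage, stood at 0.151 and 0.235 against 68.8, 22.5 and 36.3 CPM, but PECAM1 and CDH5, which define endothelium, were at or below 0.336 and 2.23 CPM. The VEGF receptor genes of endothelium were present, FLT1 at 2.83 and 0.382 against 9.75, 42.6 and 5.2 CPM and KDR at 18.1 and 1.91 against 42.4, 39.1 and 21.5 CPM. GATA2 (2.47 and 1.62 against 46.9, 48.1 and 24.9 CPM), RUNX1 and CD34 were higher on the blood list, while PTPRC, the pan-leukocyte CD45, did not exceed 2.55 CPM and SPI1 did not exceed 0.0294 CPM in the KO libraries. MYOD1 was at or below 0.202 CPM, and the mesoderm factor TBXT at or below 0.112 CPM. SOX10, of neural crest and its glia, was at 1.16 and 0.323 against 2.24, 0.670 and 0.446 CPM. TBX5 and HAND1 of heart and limb were at 0 in all KO libraries.

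Neuronal genes were lower in the high-collagen libraries as summed lists. The 25 pan-neuronal genes summed to 27.2%, 67.8% and 43.0% of the low-collagen mean in KO1 replicate 2, KO2 replicate 1 and KO2 replicate 2. In the same order, the 14 glutamatergic genes summed to 16%, 27.7% and 37.6% and the 14 GABAergic genes to 29.4%, 38.7% and 55.5%, so both of these sums were highest in KO2 replicate 2, unlike the pan-neuronal sum. Of the pan-neuronal genes only ELAVL4, an RNA-binding protein of neurons, was at least 4-fold lower, at 61.8 and 87.9 against 6.33, 17.4 and 22.3 CPM. MAP2, the dendritic microtubule protein, stood at 931 and 1290 against 159, 713 and 363 CPM. The neurofilament gene NEFL in KO2 replicate 1, at 238 CPM, exceeded both low-collagen libraries (168 and 107 CPM), and in the other high-collagen libraries it was 34.0 and 30.6 CPM. All 3 cultures labelled as neurons therefore contained neuronal mRNA. Of the 20 progenitor genes 7 were lower, among them SOX1 at 152 and 94.4 against 7.00, 27.2 and 50.5 CPM, but VIM, shared by radial glia and mesenchyme, stood at 2400 and 1960 against 5110, 2570 and 4760 CPM. None of 22 proliferation genes reached 4-fold. MKI67, a marker of cycling cells, stood at 353 and 337 against 142, 177 and 229 CPM.

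Summed forebrain genes were lower by more than the neuronal lists in KO1 replicate 2 and KO2 replicate 1, and the 3 libraries differed widely. The 14 forebrain genes summed to 1317 and 1521 CPM in the low-collagen libraries and 1283 to 1883 CPM in WT, against 88.49, 66.04 and 509.8 CPM. KO1 replicate 2 thus held 6.24% of the low-collagen mean, KO2 replicate 1 held 4.65% and KO2 replicate 2 held 35.9%. In KO2 replicate 2 this was close to the glutamatergic 37.6%. The forebrain and neuronal lists share members such as TBR1 and DLX1. TBR1, of early cortical neurons, stood at 187 and 344 against 16.5, 0.223 and 71.6 CPM. FEZF2, of deep-layer projection neurons, stood at 129 and 137 against 3.75, 0.0447 and 46.8 CPM. KO2 replicate 1 therefore had the highest pan-neuronal sum of the 3 and the lowest forebrain sum. OTX2, which spans forebrain and midbrain, was less extreme there, at 161 and 105 against 13.8, 47.1 and 53.7 CPM.

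EMX2 and LHX2, both expressed in the cortical primordium, are shown because their promoter regions carried a peak of H3K27me3 in the KO list and none in the WT list. EMX2 stood at 188 and 273 against 13.6, 1.79 and 85.1 CPM, and LHX2 at 229 and 263 against 8.85, 10.7 and 85.3 CPM. The capitals again mark each CG of the 250 bases before the start site, from chr10:117542496-117542745 and chr9:124011518-124011767 (plus strand, RefSeq, GRCh38.p14).
EMX2: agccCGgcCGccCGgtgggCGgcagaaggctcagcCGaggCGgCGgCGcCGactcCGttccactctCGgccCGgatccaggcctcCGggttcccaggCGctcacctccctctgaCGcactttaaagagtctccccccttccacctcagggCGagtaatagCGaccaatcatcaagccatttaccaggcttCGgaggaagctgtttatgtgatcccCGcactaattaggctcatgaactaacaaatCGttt
LHX2: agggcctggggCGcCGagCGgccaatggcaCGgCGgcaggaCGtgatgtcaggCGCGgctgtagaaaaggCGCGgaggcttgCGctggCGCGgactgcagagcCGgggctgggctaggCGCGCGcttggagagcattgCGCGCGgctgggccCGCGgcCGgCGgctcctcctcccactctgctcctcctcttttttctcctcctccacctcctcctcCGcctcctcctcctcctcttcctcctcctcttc
They hold 20 and 25 CG.

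HOX genes marked out KO2 replicate 1 among the KO libraries. Of 39 HOX genes 18 passed the filter, and their sum over all 39 was 72.68 and 28.51 against 73.37, 531.4 and 77.48 CPM, while WT held 106.7, 434.4 and 413.3 CPM. KO2 replicate 1 was thus above the other KO libraries and above all WT libraries, of which replicates 2 and 3 came nearest. The excess over the other KO libraries lay in the anterior paralogs. Groups 1 to 3 summed to 357 CPM in KO2 replicate 1 and to 24.6 to 51.5 CPM in the other KO libraries, and groups 4 and 5 to 166 CPM against 3.03 to 24.8 CPM. Groups 6 to 8 reached 8.22 CPM there, and groups 9 to 13 stayed at or below 0.536 CPM in every KO library. WT replicates 1, 2 and 3 held 87.1, 190 and 259 CPM in groups 1 to 3. They held 18.2, 149 and 145 CPM in groups 4 and 5, and 1.38, 83 and 8.2 CPM in groups 6 to 8. HOXB3, which is expressed in the hindbrain, stood at 35.1 and 18.1 against 30.4, 215 and 36.6 CPM. HOXA3, of hindbrain and the pharyngeal arches, stood at 3.33 and 0.0588 against 5.04, 79.5 and 1.73 CPM. The 5 HOX genes that were at least 4-fold higher in the high-collagen set were HOXC4, HOXC5, HOXD3, HOXD4 and HOXD8, of which HOXD3 stood at 0.404 and 0.235 against 5.04, 4.07 and 5.59 CPM. Genes of the midbrain-hindbrain boundary were split. GBX2 stood at 32.8 and 0.647 against 6.61, 51.7 and 4.70 CPM, and PAX5 at 1.36 and 0.588 against 0.840, 17.7 and 1.14 CPM, both led by KO2 replicate 1. EN1 (1.01 and 0.323 against 16.4, 5.32 and 12.8 CPM) and LMX1B (6.97 and 0.558 against 43.5, 50.7 and 35.8 CPM) were higher in all 3, and both are also expressed in limb development.

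**Figure D4:**
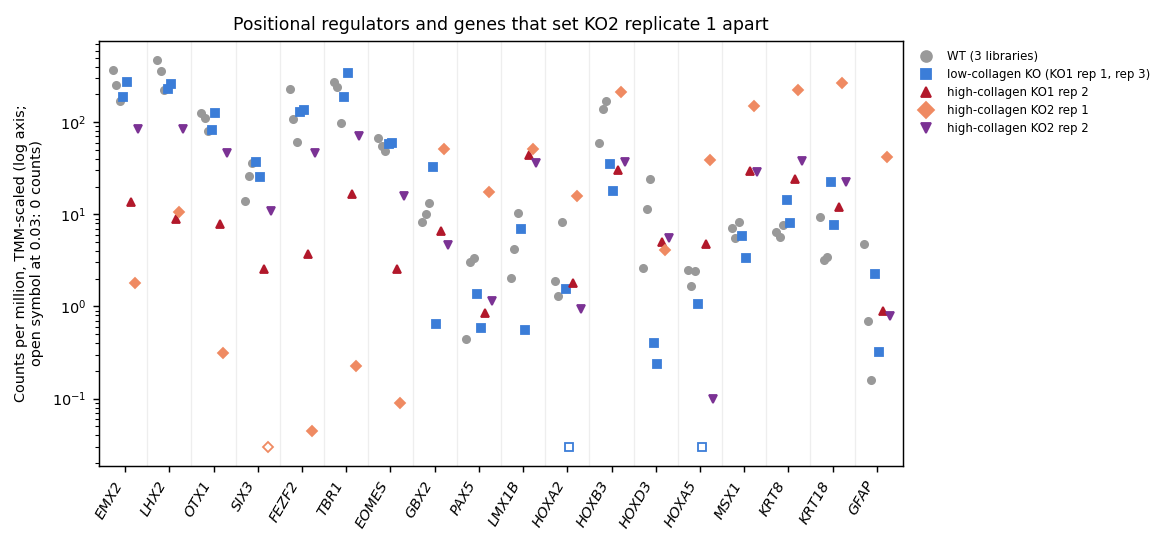
CPM of forebrain and posterior regulators, and of MSX1, KRT8, KRT18 and GFAP, in each RNA library on a log axis, 1 symbol per library. KO2 replicate 1 is lowest at EMX2 (1.79 CPM) and highest of the KO libraries at HOXB3 (215 CPM), and KO2 replicate 2 holds 85.1 CPM of EMX2.

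Genes particular to 1 high-collagen library were counted as those at 10 CPM or more and at least 8-fold above both other high-collagen libraries. There were 66 such genes in KO2 replicate 1, or 0.34% of the genes tested, 10 in KO2 replicate 2, or 0.0514%, and 2 in KO1 replicate 2, or 0.0103%. Of the 16 simple epithelium genes, KRT18 alone was among the 66. KRT18, a keratin of simple epithelia, stood at 22.5 and 7.67 against 11.9, 269 and 22.6 CPM, and its partner KRT8 at 14.3 and 7.96 against 23.97, 222 and 37.8 CPM, short of 8-fold. ITGB4, an integrin of hemidesmosomes, stood at 4.24 and 0.382 against 4.59, 138 and 2.43 CPM. The epithelial junction genes EPCAM and CDH1 did not exceed 2.55 and 2.02 CPM in any KO library. The 66 also included the astrocyte filament gene GFAP (2.27 and 0.323 against 0.896, 41.6 and 0.792 CPM), the osteocyte gene SOST (0.353 and 0.0294 against 2.02, 52.7 and 3.56 CPM) and WT1, a factor of kidney and mesothelium (1.51 and 0 against 1.90, 24.7 and 0.198 CPM). SSTR1, a somatostatin receptor, stood at 3.08 and 5.53 against 1.23, 126 and 1.58 CPM, and CARTPT, a neuropeptide precursor, at 2.47 and 1.09 against 0.336, 34.7 and 0.347 CPM.

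Of the 10 genes of KO2 replicate 2, 9 were also at 10 CPM or more in both low-collagen libraries, and several act in the forebrain: FEZF2, EMX1, SP8, NR2E1, DMRTA2 and NEUROG2. WNT7B, a Wnt ligand of the cortex, stood at 181 and 269 against 6.67, 2.19 and 82.8 CPM. The 2 genes of KO1 replicate 2 were ITGBL1, an integrin-like secreted protein (0.101 and 0.294 against 63.6, 7.19 and 6.19 CPM), and FAM220A (0.0505 and 0.0882 against 35.3, 0.0894 and 0.297 CPM). FAM220A also reached 6.22 CPM in WT replicate 3. Several genes were highest in KO1 replicate 2 and also raised in KO2 replicate 2. EGFL6, a secreted protein with EGF repeats, stood at 4.59 and 15.6 against 2927, 78.8 and 1025 CPM, COL14A1 at 2.68 and 3.44 against 746, 47.1 and 164 CPM, and HPSE2, a heparanase relative, at 0 and 0.235 against 61.6, 0.492 and 21.98 CPM.

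The comparison of KO2 with WT follows the labels and can be tested. Both KO2 libraries are high-collagen, so its calls on collagen genes, and on genes that vary with them, are not independent of the choice. In the edgeR quasi-likelihood fit of all 8 libraries, 0% of the 19440 genes were called at a false discovery rate (FDR) of 0.05 and DESeq2 called 880. Before adjustment, 3566 genes had a p under 0.05. The smallest edgeR adjusted p in this fit was 0.257. When only KO2 and WT entered the edgeR fit, 1558 of 18878 genes rose, or 8.25%, and 693 fell, or 3.67%. The spread shared by the fit of 8 libraries includes KO1, whose replicate 2 is high-collagen. Without KO1 replicate 2, edgeR called 2018 genes higher and 1210 lower.

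In the fit of KO2 and WT alone, 18 of 20 collagen processing genes, 13 of 20 matrix genes, 13 of 20 TGFβ and YAP targets and 12 of 15 contractile genes rose, and none of these lists had a member that fell. The matrix count includes COL1A1, by which the libraries were chosen. Its log2 fold change was 6.12, and its p is not read as a test. For genes that vary with COL1A1, the counts and adjusted p are not independent of that choice either. They describe these libraries only. By edgeR, SERPINH1 rose with a log2 fold change of 3.38 (adjusted p = 0.00629), PRRX1 with 4.17 (adjusted p = 0.00629) and TAGLN with 5.81 (adjusted p = 0.0072). COL3A1, TWIST1 and FOXC1 had log2 fold changes of 4.77, 5.61 and 4.12 and edgeR adjusted p of 0.0849, 0.0562 and 0.0767, above the threshold. Of 22 proliferation genes 12 fell, MKI67 by 0.90 on the log2 scale (edgeR adjusted p = 0.0306). Of 25 pan-neuronal genes 5 fell and 1 rose, with ELAVL4 at -2.16 (edgeR adjusted p = 0.00636). None of the 11 forebrain genes and none of the 18 HOX genes passed, and EMX2 had a log2 fold change of -2.56 with an edgeR adjusted p of 0.26. The KO2 libraries held 1.79 and 85.1 CPM of EMX2, against 366, 251 and 171 CPM in WT, so the ratio between the 2 replicates exceeded that of any WT pair. CDKN2B, an inhibitor of the cell cycle, had the smallest p in the edgeR fit of all 8 libraries. It stood at 1.258, 0.825 and 1.23 CPM in WT, 70.9 and 39.3 CPM in KO2, 17.3 CPM in KO1 replicate 2, and 22.3 and 5.94 CPM in the low-collagen libraries, so it was above WT in all 5 KO libraries. Its log2 fold change in KO2 and WT alone was 5.65 (edgeR adjusted p = 0.00629). EDNRB, an endothelin receptor of neural crest and glia, fell by 3.13 on the log2 scale (edgeR adjusted p = 0.0114).

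KO2 was also compared with KO1, which holds 2 low-collagen libraries and 1 high-collagen library. By edgeR 0% of the 19440 genes were called and DESeq2 called 9. Before adjustment, 436 genes had a p under 0.05. The smallest edgeR adjusted p was 0.684. COL1A1 had a log2 fold change of 0.34, since the level in KO1 replicate 2 exceeded both KO2 libraries. Without KO1 replicate 2, this comparison sets the KO2 libraries against both low-collagen libraries. That is a contrast of the chosen sets, so its calls are not given.

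Histone marks were measured by ChIP-seq with 1 deposited peak list per genotype and mark, so these comparisons have no replicate check. The labels do not say which RNA cultures the chromatin matched, and the KO list is given for both KO1 and KO2. H3K27me3 marks genes silenced by Polycomb, and H3K36me3 marks transcribed gene bodies. The fold enrichments below are the authors' values, and a gene counts as marked if a peak lies within 2 kb of a start site, or of a gene end where no start site was at hand.

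Of the 1062 higher genes, 969 had such a window, and 45% of them had an H3K27me3 peak in both lists, 6.81% in the WT list only and 1.86% in the KO list only. Of 247 lower genes with a window, 37.2% had a peak in both, 1.21% in WT only and 11.3% in KO only. Over all 16169 tested genes with a window the shares were 13.8%, 1.91% and 2.43%. Both sets of genes were thus marked in a larger share than all genes, which was not tested, and the peaks of 1 list only lay mostly in WT for the higher genes and in KO for the lower genes. All 19 head mesenchyme genes with a window, all 18 HOX genes and 16 of 23 mesenchymal regulators had a peak in both lists, against 5 of 20 matrix genes. So had all 13 GABAergic and all 16 midbrain-hindbrain genes with a window, some of them shared with those lists, and 10 of 14 glutamatergic genes. At FOXC1, on chromosome 6 from 1609915 to 1613897, the KO peak was 23864 bp long with a fold enrichment of 18.6, the WT peak was 23515 bp long with 21.9, and both covered the whole stretch printed above. TWIST1, on chromosome 7 from 19113047 to 19117636, had fold enrichments of 15.7 in WT and 12.9 in KO. COL1A1, on chromosome 17 from 50184101 to 50201631, had 10.2 in WT and 4.88 in KO. COL1A2, COL3A1, FN1, DCN and OGN had no H3K27me3 peak in their windows in either list. The ACTA2 window had a peak in the WT list only (6.44).

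Of the 11 forebrain genes with a window, 7 had an H3K27me3 peak in the WT list and all 11 in the KO list. EMX2, on chromosome 10 from 117542746 to 117549546, had KO peaks only, with a fold enrichment of up to 5.87, and so had LHX2 (11.3) and OTX1 (5.94). At LHX2 the peak that begins at 124011694 covered the last 74 bases of the stretch printed above, and at EMX2 none of the 4 KO peaks touched the printed stretch, with the nearest upstream peak ending at 117542434. These 3 genes had an H3K36me3 peak in the WT list, with fold enrichments of 5.69 for EMX2, 7.12 for LHX2 and 6.31 for OTX1, and none in the KO list. The KO H3K36me3 list is shorter in all, with 8937 peaks against 30144. An H3K36me3 peak lay in 6.91% of the higher genes in WT and 2.68% in KO, against 42.6% and 23.1% of all tested genes.

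**Figure D5:**
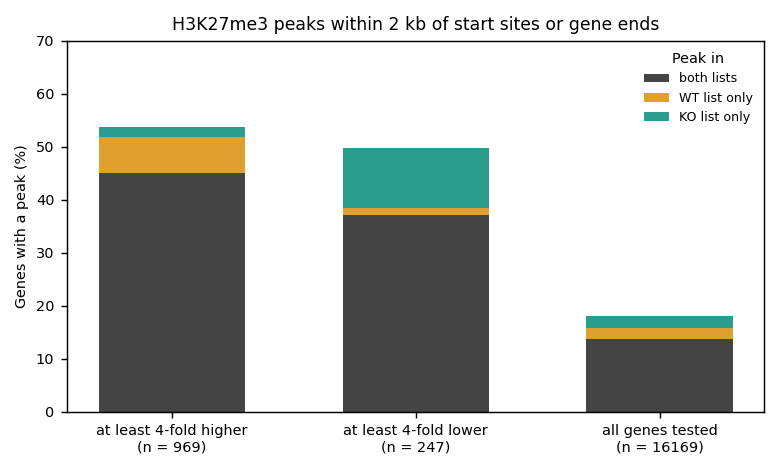
Share of genes with an H3K27me3 peak within 2 kb of a start site or gene end, for genes at least 4-fold higher (n = 969), at least 4-fold lower (n = 247) and all genes tested (n = 16169), split by the list that holds the peak. The share with a peak in both lists is 45%, 37.2% and 13.8%, and KO-only peaks take 11.3% of the lower genes.

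Among the higher and the lower genes, the CG count differed with the mark. Among higher genes with a start site in the table, the 296 with an H3K27me3 peak in both lists held a median of 23 CG in the 250 bases before it, and the 349 with a peak in neither held 8. The medians of the lower genes were 20 for the 63 marked in both lists, 18.5 for the 22 marked in KO only and 4 for the 97 in neither. Over all tested genes the medians were closer, at 22 with a peak in both lists and 20 with a peak in neither. FOXC1 and OGN, printed above, are examples of the marked and the unmarked higher genes.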

How the data were processed

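Per the submitters' processing notes, the authors quantified RNA with Salmon 1.1.0 on GRCh38. The deposited values are estimated counts, 1 row per gene symbol and not normalized. The annotation is not stated in the material used here. The notes also name Bowtie2 2.4.1 and MACS2 2.2.7.1 for ChIP. Per the file headers, the authors set a q cutoff of 0.01 and used, for every genotype and mark, 1 treatment and 1 control. Each deposited peak carries its pileup (signal), its fold ratio to the control and a −log10 q-value, as the authors computed them.

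Estimated counts were rounded. Genes passing filterByExpr (edgeR 4.0.16, R 4.3.3) were TMM-scaled, and ratios are of mean CPM. The threshold was 1000 COL1A1 CPM of the column sum. KO2 was tested against WT and against KO1 by edgeR's quasi-likelihood test in a fit of the groups WT, KO1 and KO2, adjusted by Benjamini-Hochberg over all genes. The script was tested on simulated data. DESeq2 1.42.0 gave no adjusted p for 1524 genes in KO2 against WT, among them 19 of the 20 matrix genes. H3K27me3 windows were 2 kb around RefSeq start sites for 12703 genes and around gene ends for 3466, and 3271 had neither. H3K36me3 peaks were counted over the gene span. The RefSeq promoter windows are on GRCh38.p14.

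The libraries, members and 36 gene lists were chosen with earlier results of these data known. Genes named were the 12 with the highest and the 12 with the lowest ratio of those with a mean of 20 CPM or more in the higher set, the 8 most particular to each high-collagen library, up to 4 abundant members of each list, positional regulators reaching 20 CPM, the 5 lowest p-values in each direction of each test, and COL1A1 and KDM6A. Other list members, and genes without a peak, were named after their values were seen. A few that met the rule are not reported here. Other scalings, filters, fold thresholds, DESeq2, a fit of only the groups compared, a replicate block, leaving out each library and other peak windows were tried.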

Additional observations from a re-analysis of the deposited data

How the results depend on the processing

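Column totals as the scale moved the median log2 ratio of all genes from -0.03 to -0.263 and gave 892 higher and 484 lower genes, and RLE scaling gave 1101 and 348. At 2-fold there were 2144 higher and 1513 lower genes, and with no filter on low counts 730 lower. Leaving out 1 library gave 968 to 1522 higher and 291 to 667 lower genes, with 667 lower without KO2 replicate 1 and 597 without KO2 replicate 2. Genes particular to 1 library numbered 12, 213 and 32 at 4-fold in KO1 replicate 2, KO2 replicate 1 and KO2 replicate 2, and 1 in KO1 replicate 2 on column totals. Of 324 list medians recomputed, 273 moved by less than the spread between libraries, as did 777 of 832 ratios of named genes, and none changed sign past the fold threshold.

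KO2 against WT gave 0 edgeR calls in the fit of 8 libraries and 1 with no filter (CDKN2B, adjusted p = 0.0256). It gave 2251 with only the 2 groups compared and 880 by DESeq2. DESeq2 with only the 2 groups gave 4390 and DESeq2 without its Cook's distance filter gave 1065, both chosen after seeing the data. Leaving out 1 library gave 0 to 3228, the highest without KO1 replicate 2, and 0 without any other library. KO2 against KO1 gave 9 by DESeq2, 12 by DESeq2 with only the 2 groups, 9 without the Cook's filter, and 0 to 958 with 1 library left out, again highest without KO1 replicate 2. The replicate block gave 0 calls in both comparisons. Deviations from the group mean correlated at -0.301 to 0.267 between same-numbered libraries. With 2 libraries in KO2, their deviations are mirror images, and KO1 replicate 2 stands apart within KO1. Whether the numbers pair the libraries is therefore not settled.

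Each high-collagen library is 1 culture, and the precision of genes below 1 CPM is limited by totals of 17.4 to 31.5 M. Peak lists have no replicates and differ in depth, with 22.4 M tags in WT and 37.6 M in KO for H3K27me3.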

Other observations

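Genes of choroid plexus and cilia varied between libraries without following the collagen level. TTR, the transthyretin made by choroid plexus, stood at 497 and 20.5 CPM in KO1 replicates 1 and 3, at 127, 202 and 686 CPM in KO1 replicate 2, KO2 replicate 1 and KO2 replicate 2, and at 67.1, 34.5 and 6.54 CPM in WT. FOXJ1, the regulator of motile cilia, stood at 37.6 and 31.6 against 7.11, 72.03 and 21.98 CPM. None of the 15 genes of this list was at least 4-fold higher or lower.

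The lower genes with the largest ratios were ZACN, a zinc-activated channel (25.7 and 32.5 against 0.280, 2.23 and 0.0990 CPM), and FGF17, a growth factor of the midbrain-hindbrain boundary. FGF17 was high in KO1 replicate 1 alone, at 228 CPM, against 13.8 CPM in KO1 replicate 3, 2.24, 1.16 and 8.76 CPM in the high-collagen libraries and 4.72 to 5.85 CPM in WT. LHX5 and LHX1, of Cajal-Retzius cells and diencephalon, stood at 50.5 and 65.0 against 3.64, 1.39 and 8.32 CPM and at 19.4 and 46.6 against 1.85, 1.88 and 4.75 CPM.

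RGPD6 was at 36.4 CPM in WT replicate 2, 34.7 and 10.1 CPM in the low-collagen libraries and 30.8 CPM in KO2 replicate 2, and at or below 0.771 CPM in the other 4 libraries. It belongs to a family of near-identical copies, so its counts are uncertain.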
